A study of Mus musculus with 40 samples.

Results

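Txnip, its 4 close relatives Arrdc1, Arrdc2, Arrdc3 and Arrdc4, and Mlxip are the 6 genes described here, found by symbol among the 27179 genes of a single expression table. All 6 had a mean level above the low-level minimum, a value of 2.32 on the log2 scale, which 13103 genes of the table reached over 40 libraries. The libraries are poly(A) RNA-seq of bone marrow-derived macrophages (BMDMs), grown from bone marrow with L-cell medium, from 4 wildtype (WT) and 4 Cpeb4 total knockout (Cpeb4-/-) male mice on a mixed C57BL/6J and 129 background. CPEB4 is a cytoplasmic protein that binds sequence elements in the 3′ ends of mRNAs, and the study asked what its loss does to the macrophage response to bacterial lipopolysaccharide (LPS). Each mouse gave cells left untreated (0 hr) and cells given LPS at 10 ng/ml for 1, 3, 6 or 9 hr, so each of the 10 groups held 4 libraries. All mice of both genotypes shared the strain background, their cultured cells received the same LPS dose, and the Cpeb4 deletion was present in the whole animal rather than in macrophages alone. Values are regularized log2 (rlog) read counts as deposited, so a difference of 1 is a doubling before the shrinkage that rlog applies to weakly detected genes.

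Txnip encodes the thioredoxin-interacting protein and belongs with the ARRDC proteins to the alpha-arrestins, a family that carries an arrestin fold and links membrane cargo to NEDD4-type ubiquitin ligases through short proline-rich motifs. TXNIP binds reduced thioredoxin and lowers glucose uptake by promoting the internalization of glucose transporters. Its transcription, and that of Arrdc4, is driven by MondoA, the product of Mlxip, which pairs with MLX, senses hexose phosphates and binds carbohydrate response elements made of paired E-box-like sequences. ARRDC3 promotes the endocytosis and degradation of beta-adrenergic receptors and of integrin beta 4, and ARRDC1 drives the budding of vesicles from the plasma membrane. The role of ARRDC2 is the least settled of the family.

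The Txnip gene lies at chr3:96557957-96561857 on the plus strand (GRCm38.p6, the assembly of the mm10 coordinates the authors used), and Arrdc4 lies at chr7:68736994-68749238 on the minus strand. The stretches just before their RefSeq start sites are shown because they hold E-box-like sequences, a pair in Txnip and a single CACGTG in Arrdc4. Each runs from position -200 to -1 before the start, at chr3:96557757-96557956 for Txnip and chr7:68749239-68749438 for Arrdc4, with CACGAG and CACGTG in capitals.
Txnip: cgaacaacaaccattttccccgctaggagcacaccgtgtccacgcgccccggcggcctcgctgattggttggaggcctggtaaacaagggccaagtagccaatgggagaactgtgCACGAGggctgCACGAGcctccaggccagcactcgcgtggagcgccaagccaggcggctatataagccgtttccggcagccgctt
Arrdc4: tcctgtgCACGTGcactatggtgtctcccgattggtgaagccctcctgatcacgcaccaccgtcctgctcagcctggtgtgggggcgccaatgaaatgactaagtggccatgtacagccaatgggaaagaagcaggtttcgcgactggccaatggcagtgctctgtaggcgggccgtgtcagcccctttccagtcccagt

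The Txnip promoter held CACGAG at positions -85 to -80 and again at -74 to -69, so that 2 boxes stood 5 bases apart. A pair of CACGNG boxes with this spacing, on either strand, was present in 15 of 32851 RefSeq promoters (0.0457%) searched over the 250 bases before the start. Among promoters of genes above the low-level minimum it was present in 9 of 12690. Single copies were common: CACGTG was in 6.02% and CACGAG in 5.37% of the 32851 promoters, and each of these also matches CACGNG. Arrdc4 held 1 CACGTG at -193 to -188, Arrdc1 held CACGAG at -158 to -153 and at -118 to -113, and Arrdc2 held 1 CACGAG at -77 to -72. Neither sequence was in this window of Mlxip or of the 3 start sites listed for Arrdc3. These matches describe letters and were not tested as binding sites.

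The other genes lie at chr2:24925352-24935335 (Arrdc1, minus strand), chr8:70835129-70839720 (Arrdc2, minus strand), chr13:80883384-80896042 (Arrdc3, plus strand) and chr5:123394521-123457932 (Mlxip, plus strand). The whole Txnip gene is overlapped on the opposite strand by Gm15441, a long non-coding RNA gene that has its own row in the table. The library protocol and the counting are not stated to use strand, so reads from Txnip and from Gm15441 cannot be told apart where their exons overlap. Gm15441 had group means between 2.44 and 3.88, against 11.29 to 13.25 for Txnip. It fell from 3.87 ± 0.05 (SD, n = 4) in untreated WT cells to 2.75 ± 0.38 at 6 hr, an rlog difference of -1.12 ± 0.22 (SE, adjusted p = 0.00010), fell in Cpeb4-/- cells by 1.43 (SE 0.13, adjusted p = 2.4e-09), and was not called between genotypes at any time.

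The labels were checked on the whole table before the genes were compared. All 40 libraries were nearest to the mean profile of their labelled time. Group means of the 9 macrophage markers were between 9.05 and 18.70, while the defining markers Cd3e (T cells) and Ly6g (neutrophils) had no group mean above 0.46; the markers above the minimum were 2 of 5 for neutrophils, 2 of 3 for dendritic cells, 1 of 3 for fibroblasts and 0 of 3 for T cells. Of these, S100a8 and S100a9 reached group means of 7.30 and 5.65, and Xcr1 6.95, and their part in the results was not tested. Cpeb4 itself ranged from 7.03 to 8.13 in untreated WT and from 6.88 to 7.87 in untreated Cpeb4-/- libraries, and the genotypes were apart only at 6 hr, when WT libraries were at 10.09 to 10.67 and Cpeb4-/- libraries at 8.74 to 9.66. The gene-level value therefore does not check the genotype labels at the other times, and the deleted exons cannot be seen in it. Each batch held 2 mice of each genotype, whereas no cage held both genotypes, so genotype and cage cannot be told apart. In RNA from whole cultures, fewer cells of a kind and less RNA per cell cannot be told apart either.

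After LPS the family moved in different directions. The labels give no untreated cells matched to 1, 3, 6 or 9 hr, so LPS and time in culture cannot be told apart in these changes. In WT cells Txnip, Arrdc2 and Arrdc3 fell within 1 hr, Arrdc1 fell later and by less, and Arrdc4 was higher from 1 hr on. Mlxip was called higher at 3, 6 and 9 hr on the deposited scale but not under quantile normalization. By limma with Benjamini-Hochberg adjustment over all genes tested, 4, 6, 6 and 4 of the 6 were called in WT cells after 1, 3, 6 and 9 hr relative to 0 hr, where 33.9%, 67.8%, 77.9% and 71.5% of all genes were called. The same comparisons within Cpeb4-/- cells called 4, 5, 6 and 5, against 43.8%, 71.3%, 79.1% and 72.8% of all genes. Most genes above the minimum were called with LPS from 3 hr on, so these counts are read as background and each gene is described by its own values.

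**Figure D1:**
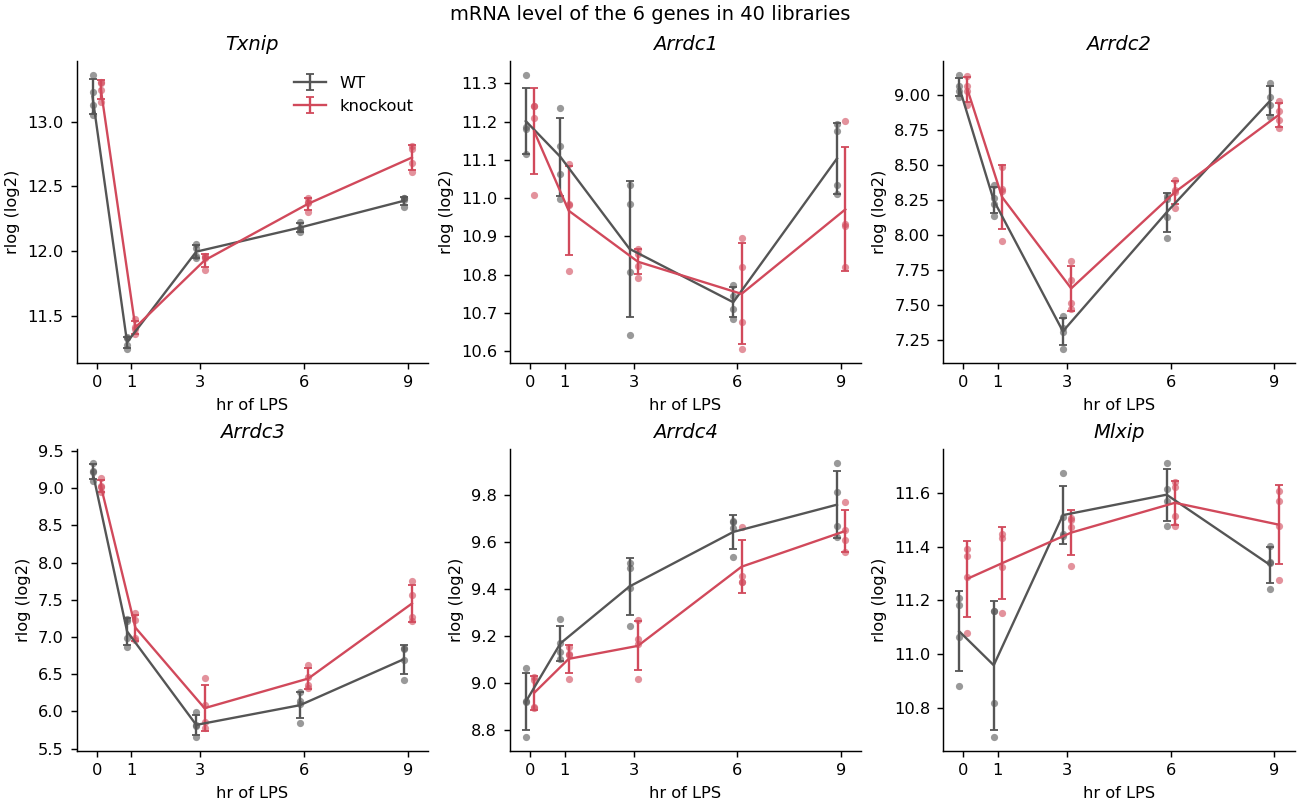
rlog level (log2) against hr of LPS for each of the 6 genes, with 1 point per library, lines through the means of 4 libraries and bars of 1 SD. Txnip is lowest at 1 hr and Arrdc3 and Arrdc2 at 3 hr, Arrdc4 climbs to 9.76 in WT cells at 9 hr, and at 9 hr the Cpeb4-/- libraries lie above all WT libraries for Txnip and Arrdc3.

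Txnip fell most at the first time measured and then came back part of the way. The 4 untreated WT libraries stood at 13.05, 13.13, 13.23 and 13.36, and the 4 taken at 1 hr at 11.24, 11.27, 11.33 and 11.34. The groups were far apart, and the fall was 1.90 on the log2 scale (SE 0.05, adjusted p = 7.8e-17), a level 3.74-fold lower. WT libraries were at 11.95 to 12.06 at 3 hr, 12.15 to 12.23 at 6 hr and 12.34 to 12.41 at 9 hr, with no overlap between one time and the next. Each step up was called, by 0.70 ± 0.05 (SE) from 1 to 3 hr, 0.19 ± 0.05 from 3 to 6 hr and 0.21 ± 0.05 from 6 to 9 hr, with adjusted p of 3.1e-10, 0.0039 and 0.0023. The step from 3 to 6 hr is lost under quantile normalization (0.03, adjusted p = 0.65). At 9 hr Txnip was still lower than in untreated WT cells by an rlog difference of -0.81 ± 0.05 (SE, adjusted p = 1.7e-11). From highest to lowest, the order of the WT levels was thus 0, 9, 6, 3 and 1 hr.

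Txnip also fell within 1 hr in Cpeb4-/- cells and then came back. The 4 untreated Cpeb4-/- libraries were at 13.15, 13.25, 13.30 and 13.31 and those at 1 hr at 11.36, 11.40, 11.41 and 11.48, a fall of 1.84 on the log2 scale (SE 0.05). They reached 11.85 to 11.96 at 3 hr, 12.30 to 12.41 at 6 hr and 12.61 to 12.82 at 9 hr. Each step up was called there as well, by 0.52, 0.44 and 0.36 (SE 0.05 each), with adjusted p of 5.7e-09, 7.4e-08 and 2.4e-06.

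Arrdc3 showed the largest range of the 6, with group means between 5.82 and 9.22; 97.7% of genes above the minimum had a smaller range. Untreated WT libraries stood at 9.09, 9.22, 9.24 and 9.34, and WT libraries at 3 hr at 5.66, 5.81, 5.82 and 5.99. No library of the treated groups came near the untreated ones. Arrdc3 fell by 2.15 on the log2 scale at 1 hr (SE 0.11, adjusted p = 2.7e-12) and by 3.40 at 3 hr (SE 0.11, adjusted p = 3.3e-16), the latter a level 10.6-fold lower. WT libraries were at 5.84 to 6.26 at 6 hr and 6.43 to 6.85 at 9 hr. The rise from 6 to 9 hr was 0.62 ± 0.11 (SE, adjusted p = 0.00011), while that from 3 to 6 hr, 0.26 ± 0.11 (adjusted p = 0.046), was lost without the low-level filter (adjusted p = 0.074), in the fit of all 40 libraries (0.066) and with mouse 69, 87 or 88 left out (adjusted p between 0.071 and 0.33). At 9 hr WT Arrdc3 was still lower than in untreated cells by an rlog difference of -2.52 ± 0.11 (SE, adjusted p = 4.2e-14), or 5.75-fold.

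Arrdc3 of Cpeb4-/- cells fell by 2.99 on the log2 scale at 3 hr (SE 0.13, adjusted p = 3.1e-14), from 8.95 to 9.14 over the untreated libraries to 5.78 to 6.46. It then rose by 0.40 ± 0.13 (SE, adjusted p = 0.014) from 3 to 6 hr and by 1.01 ± 0.13 (adjusted p = 2.4e-06) from 6 to 9 hr. The first of these steps was lost with mouse 3, 55 or 62 left out (adjusted p between 0.055 and 0.083).

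Arrdc2 fell and returned within the time course. WT libraries stood at 8.99, 9.03, 9.07 and 9.14 before LPS, at 7.19, 7.31, 7.34 and 7.42 at 3 hr and at 8.84, 8.93, 8.98 and 9.09 at 9 hr. The 9 hr libraries overlapped the untreated ones, and the 3 hr libraries were below both groups. The difference from 0 hr was -0.81 ± 0.07 (SE) at 1 hr, -1.74 ± 0.07 at 3 hr and -0.90 ± 0.07 at 6 hr, with adjusted p of 2.3e-08, 2.4e-14 and 7.4e-10. At 9 hr it was -0.10 with a 95% interval from -0.25 to 0.06, which did not pass the threshold (adjusted p = 0.26). WT levels at 1 hr (8.14 to 8.36) and 6 hr (7.98 to 8.28) overlapped. The rises from 3 to 6 hr and from 6 to 9 hr, 0.85 ± 0.07 and 0.80 ± 0.07 (SE), were both called (adjusted p of 4.6e-09 and 2.3e-08). Cpeb4-/- cells gave called differences from 0 hr of -0.77 at 1 hr, -1.42 at 3 hr and -0.73 at 6 hr. Their 9 hr difference, -0.18 with a 95% interval from -0.37 to 0.01, did not pass (adjusted p = 0.084), though it did without mouse 3 (adjusted p = 0.038).

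Relative to 0 hr Arrdc4 moved the other way from Txnip, although both are known MondoA targets. After 1 hr the WT means of both genes rose from each time to the next. WT libraries stood at 8.77, 8.92, 8.93 and 9.07 before LPS and at 9.62, 9.67, 9.81 and 9.93 at 9 hr. Every library at 9 hr was above every untreated one, while the step from 6 to 9 hr, 0.12 with a 95% interval from -0.04 to 0.28, did not pass (adjusted p = 0.22). After 1, 3, 6 and 9 hr the WT differences from 0 hr were 0.25, 0.49, 0.72 and 0.84 (SE 0.08 each), with adjusted p of 0.015, 9.5e-06, 3.0e-08 and 4.3e-09. The call at 1 hr was lost without mouse 25 (adjusted p = 0.087) or mouse 69 (adjusted p = 0.064). For Cpeb4-/- cells the difference was 0.14 ± 0.06 at 1 hr, which did not pass (adjusted p = 0.070, or 0.023 under quantile normalization), then 0.20, 0.54 and 0.69 (SE 0.06 each), all called; the 3 hr call was lost without mouse 3 (adjusted p = 0.064) or mouse 55 (adjusted p = 0.056).

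Arrdc1 changed least. WT libraries stood at 11.11 to 11.32 before LPS and at 10.68 to 10.77 at 6 hr, with no overlap. The difference from 0 hr was -0.33 ± 0.07 (SE, adjusted p = 0.00048) at 3 hr and -0.47 ± 0.07 (adjusted p = 7.1e-06) at 6 hr, and by 9 hr the level had risen by 0.38 ± 0.07 (adjusted p = 0.00026) to 11.01 to 11.19. Only 14.8% of genes above the minimum had a smaller range of group means than Arrdc1. The WT differences at 1 hr (-0.09) and 9 hr (-0.10) did not pass, with adjusted p of 0.37 and 0.24, but both passed under quantile normalization (0.015 and 0.00074). Arrdc1 was called lower in Cpeb4-/- cells at all 4 times, by -0.21, -0.34, -0.42 and -0.20 at 1, 3, 6 and 9 hr (SE 0.08 each); the calls at 1 and 9 hr were lost without mouse 55 or mouse 62, with adjusted p between 0.12 and 0.15, and that at 1 hr also without the low-level filter (0.066).

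Mlxip, which encodes the MondoA factor itself, stood at 10.88, 11.06, 11.18 and 11.21 in untreated WT libraries and at 11.48, 11.57, 11.61 and 11.71 at 6 hr. On the deposited scale the difference from 0 hr was 0.43 ± 0.09 (SE) at 3 hr, 0.51 ± 0.09 at 6 hr and 0.25 ± 0.09 at 9 hr in WT cells, with adjusted p of 0.00043, 5.9e-05 and 0.026; the last was lost without mouse 88 (adjusted p = 0.11). The 3302 genes with a mean level between 10 and 12, Mlxip and Arrdc1 among them, had a median change of 0.25 at 6 hr in WT cells on that scale. Quantile normalization shifts the 6 hr changes of these genes by a median of -0.29, against a shift of 0.10 over all genes. Under it the WT changes of Mlxip at 3, 6 and 9 hr were 0.16, 0.11 and 0.01, with none called (adjusted p between 0.14 and 0.91). The Cpeb4-/- difference at 3 hr, 0.17 ± 0.08, did not pass (adjusted p = 0.058) but passed with the mouse as a replicate block (adjusted p = 0.032). In Cpeb4-/- cells the called differences of 0.28 ± 0.08 at 6 hr (SE, adjusted p = 0.0027) and 0.20 ± 0.08 at 9 hr (adjusted p = 0.027) turned to -0.10 and -0.06 under quantile normalization, not called. On the deposited scale the 6 hr call was lost without mouse 55 (adjusted p = 0.076) and the 9 hr call without mouse 3, 55 or 62 or without the low-level filter (adjusted p between 0.052 and 0.21). The direction for Mlxip in Cpeb4-/- cells thus depends on the scaling, while the WT differences at 3, 6 and 9 hr stayed positive and lost their calls. At 1 hr the WT difference from 0 hr was -0.13 on the deposited scale and did not pass (adjusted p = 0.34). Under quantile normalization it was -0.27 and was called lower (adjusted p = 0.031).

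**Figure D2:**
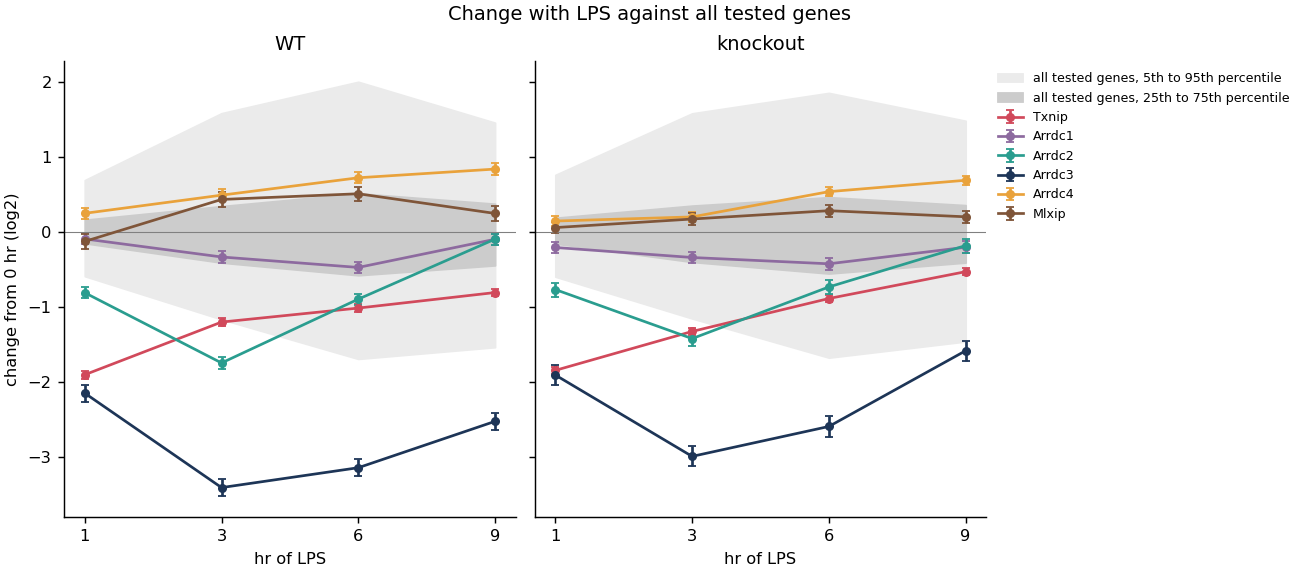
Change from 0 hr (log2) against hr of LPS in WT (left) and Cpeb4-/- (right) cells, with points and bars of 1 SE for the 6 genes over bands that hold the 25th to 75th and 5th to 95th percentiles of all genes tested. Arrdc3 lies below the 5th percentile at every time in both genotypes, and Txnip lies below it at 1 and 3 hr, with WT changes of -1.90 and -1.20.

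Between successive times, 6 of the 6 genes were called in WT cells from 1 to 3 hr, 4 from 3 to 6 hr and 5 from 6 to 9 hr, against 60.1%, 63.7% and 51.4% of all genes. The calls from 1 to 3 hr were lost for Arrdc1 (-0.24) without mouse 88 (adjusted p = 0.095) and for Arrdc4 (0.24) without mouse 25 (0.078), and that of Arrdc4 from 3 to 6 hr (0.23) without mouse 69 (0.11). From 6 to 9 hr, 4 of the 5 were rises (Txnip, Arrdc1, Arrdc2 and Arrdc3) and the other was the fall of Mlxip (-0.26 ± 0.09 SE, adjusted p = 0.026), which was lost without the low-level filter, under quantile normalization and without mouse 25, 69 or 88 (adjusted p between 0.052 and 0.43). Of the 6 genes, 3, 4 and 5 were called over the same steps in Cpeb4-/- cells, against 64%, 64.4% and 53.6% of all genes, and all 5 from 6 to 9 hr were rises. Of these, the rise of Arrdc4 (0.15, adjusted p = 0.049) was lost under 7 alternatives and that of Arrdc1 (0.22, adjusted p = 0.021) without mouse 2 or 55.

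Loss of CPEB4 was accompanied by higher Txnip and Arrdc3 late in the response. None of the 6 genes was called between genotypes at 0, 1 or 3 hr, where 1.31%, 1.91% and 3.68% of all genes were called. These shares rest on single libraries: over all genes, the 251 calls at 1 hr became 2440 without mouse 69, the 481 at 3 hr became 2584 without mouse 88 and the 1029 at 9 hr became 4575 without mouse 2, and the lowest counts with 1 mouse left out were 40, 76 and 387. Txnip and Arrdc3 were called higher in Cpeb4-/- cells at 6 hr and at 9 hr, 2 of 6 at each, against 16.3% and 7.91% of all genes. With counts this small, the share of members called is not set against the background, and each gene is given by its own values. No gene of the 6 was called lower.

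At 9 hr the WT libraries of Txnip were at 12.34 (mouse 25), 12.40 (mouse 88), 12.41 (mouse 69) and 12.41 (mouse 87). The Cpeb4-/- libraries were at 12.61 (mouse 3), 12.68 (mouse 55), 12.79 (mouse 2) and 12.82 (mouse 62). The groups did not overlap, and the difference was 0.33 ± 0.05 (SE, adjusted p = 0.0069), a level 1.26-fold higher, with 0.34 in batch 1 and 0.33 in batch 2. At 6 hr WT libraries were at 12.15 to 12.23 and Cpeb4-/- libraries at 12.30 to 12.41, a difference of 0.18 ± 0.04 (SE, adjusted p = 0.0066), with 0.14 and 0.23 within the batches. Both calls held under every alternative listed for these comparisons, including each mouse left out. At 3 hr the difference was -0.07 with a 95% interval from -0.17 to 0.04.

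Arrdc3 differed more. At 9 hr the WT libraries were at 6.43 (mouse 25), 6.69 (mouse 69), 6.84 (mouse 87) and 6.85 (mouse 88), and the Cpeb4-/- libraries at 7.21 (mouse 55), 7.27 (mouse 2), 7.57 (mouse 3) and 7.75 (mouse 62). All Cpeb4-/- libraries were above all WT libraries, by a mean difference of 0.75 ± 0.14 (SE, adjusted p = 0.011), a level 1.68-fold higher. The difference was 1.02 in batch 1 and 0.48 in batch 2, and the call held under every alternative run. At 6 hr the groups again did not overlap, at 5.84 to 6.26 in WT and 6.32 to 6.63 in Cpeb4-/- libraries, with a difference of 0.36 ± 0.11 (SE). Its adjusted p of 0.042 was just past the threshold, and the call was lost with the mouse as a replicate block (adjusted p = 0.063), with batch as a covariate (0.060), without the filter (0.11), and without mouse 2, 3, 25, 62, 87 or 88 (0.054 to 0.12).

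**Figure D3:**
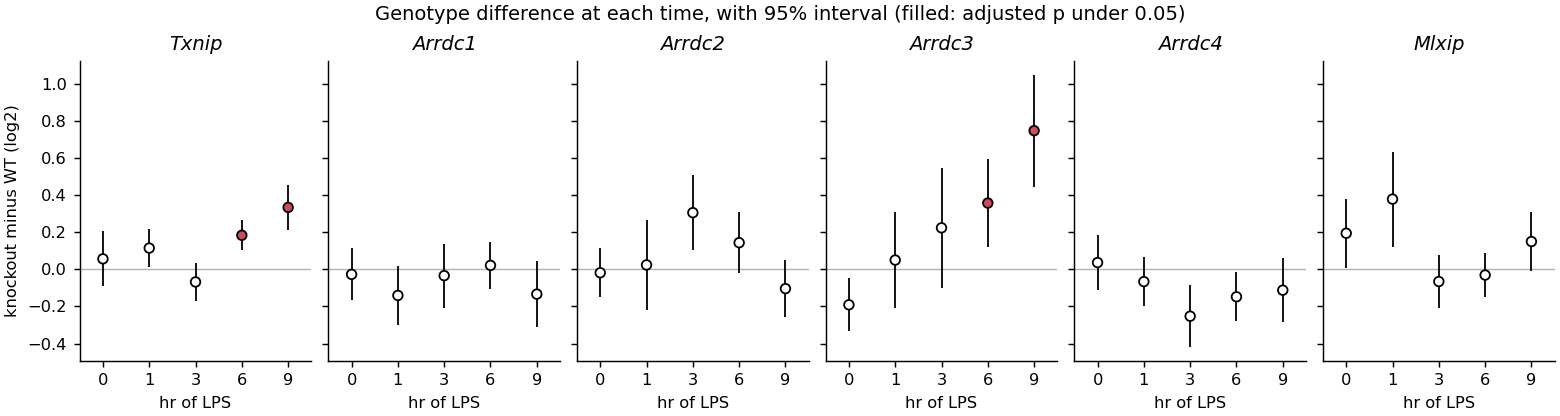
Cpeb4-/- minus WT rlog difference (log2) at each time for the 6 genes, with 95% intervals from limma on 8 libraries a time; filled points passed an adjusted p of 0.05. Filled points are those of Txnip (0.18 and 0.33) and Arrdc3 (0.36 and 0.75) at 6 and 9 hr.

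The other 4 genes gave no genotype call in the fits of a single time. For Arrdc2 at 3 hr the Cpeb4-/- libraries, 7.47, 7.51, 7.68 and 7.81, were all above the WT libraries, which reached 7.42. The difference was 0.31 ± 0.09 (SE, adjusted p = 0.088), and it passed with the mouse as a replicate block (adjusted p = 0.019). Arrdc4 at 3 hr was at 9.02 to 9.27 in Cpeb4-/- and 9.24 to 9.51 in WT libraries, a difference of -0.25 ± 0.08 (adjusted p = 0.089) that also passed with the block (adjusted p = 0.016). Mlxip at 1 hr was at 11.15 to 11.45 in Cpeb4-/- and 10.69 to 11.16 in WT libraries, a difference of 0.38 ± 0.11 (adjusted p = 0.083) that passed with the block (adjusted p = 0.0036). The blocked fit estimates the spread over all 40 libraries, and a fit of all 40 without the mouse gave the same 3 calls. With the block, calls over all genes also rose, from 251 to 4323 of 13103 at 1 hr and from 481 to 1393 at 3 hr, so these gains came with a rise across the table. Arrdc1 differences were between -0.14 and 0.02 over the 5 times, with no call. Leaving out mouse 2 gave calls at 9 hr for Arrdc1 (lower, adjusted p = 0.015) and Mlxip (higher, adjusted p = 0.0071), leaving out mouse 3 gave one for Arrdc4 at 6 hr (lower, adjusted p = 0.033), and leaving out mouse 69 gave one for Mlxip at 1 hr (adjusted p = 0.042). The gains without mouse 2 and without mouse 69 came with the larger counts over all genes given above for these fits.

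A two-sided exact permutation test of 4 against 4 libraries, run for 30 gene and time combinations, cannot give a p below 0.029. It reached that value for Txnip at 1, 6 and 9 hr, Arrdc2 at 3 hr and Arrdc3 at 6 and 9 hr, the combinations in which the genotypes did not overlap, and after adjustment over the 30 tests each was at 0.14. Of the 6 genes, 0, 1, 1, 2 and 2 were apart between genotypes at the successive times from 0 to 9 hr, all with Cpeb4-/- libraries higher; over all genes tested, 10.5%, 15.7%, 13.6%, 20.2% and 16.9% were apart in one direction or the other.

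Whether the change with LPS itself differed between genotypes was tested in one model of all 40 libraries. Arrdc3 and Txnip were called for the change from 0 to 9 hr, 2 of 6 where 1.76% of all genes were called, and no member was called for the changes to 1, 3 or 6 hr, where 0.00763%, 0.206% and 2.94% of genes were called. From 0 to 9 hr Arrdc3 changed by -2.91 (mouse 25), -2.40 (mouse 69), -2.39 (mouse 87) and -2.38 (mouse 88) in WT mice. In Cpeb4-/- mice it changed by -1.87 (mouse 2), -1.80 (mouse 55), -1.38 (mouse 3) and -1.28 (mouse 62). The 2 sets of mice did not overlap, and the difference between genotypes was 0.94 ± 0.18 (SE, adjusted p = 0.0026), called under every alternative run. For the change to 6 hr it was 0.55 ± 0.18 (adjusted p = 0.092), which passed with the mouse as a replicate block (adjusted p = 0.046).

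Txnip changed from 0 to 9 hr by -0.97 (mouse 88), -0.82 (mouse 87), -0.79 (mouse 25) and -0.65 (mouse 69) in WT mice and by -0.57 (mouse 55), -0.54 (mouse 3), -0.52 (mouse 2) and -0.49 (mouse 62) in Cpeb4-/- mice. Again the sets did not overlap, with a difference of 0.28 ± 0.07 (SE, adjusted p = 0.027). This call is less firm than that of Arrdc3: it was lost under quantile normalization (adjusted p = 0.077) and without any one of mice 2, 3, 25, 55, 62, 87 and 88 (adjusted p between 0.054 and 0.11), while the difference itself stayed between 0.22 and 0.29 in those fits. In the exact permutation test over within-mouse changes, 24 in all, the smallest possible p of 0.029 was reached by Txnip at 9 hr, Arrdc2 at 3 hr, Arrdc3 at 3, 6 and 9 hr and Arrdc4 at 3 hr, each 0.11 after adjustment over the 24. Arrdc4 was the 1 gene of these whose change was lower in Cpeb4-/- mice, by -0.29 at 3 hr.

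CPEB4 binds cytoplasmic polyadenylation elements (CPEs), and the tristetraprolin protein binds AU-rich elements (AREs), which shorten the life of many inflammatory mRNAs. The longest 3′ untranslated region of each gene in GENCODE vM21 was searched on the sense strand for the CPE-like sequences TTTTAT or TTTTAAT or TTTTAAAT or TTTTACT or TTTTCAT or TTTTAAGT or TTTTGT, none of which holds another, and for ATTTA. At least 1 CPE-like sequence was found in 78.0% of 11864 genes above the minimum, and ATTTA in 69.8%. Arrdc3 held 16 CPE-like sequences and 8 copies of ATTTA in 2616 bases, and Txnip held 11 CPE-like sequences and no ATTTA in 1354 bases. Per kilobase this is 8.12 for Txnip, above 94.8% of genes, and 6.12 for Arrdc3, above 88.1%. The median gene had 2.46. Arrdc4 had 3.22, Arrdc2 2.46, Mlxip 1.36 and Arrdc1, with only 254 bases, none. The CPE-like sequence nearest before the last AATAAA is shown for the genes that differed between genotypes at 9 hr, in capitals, at chr3:96561838-96561867 (plus strand) and chr13:80895904-80895933 (plus strand).
Txnip: aaataaagttTTTTAATgacaaaaataaat
Arrdc3: tgttgtaatcTTTTATttggtgctgaatat

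In Txnip 6 bases, and in Arrdc3 88 bases, separated it from that last AATAAA, the sequence of a polyadenylation signal. In Txnip the last AATAAA lies past the RefSeq gene end at chr3:96561857, in the longer GENCODE region. The stretch shown for Txnip also holds an AATAAA before TTTTAAT, and which of them is used was not tested. Binding of CPEB4 to these letters was not tested here. The paper names Txnip mRNA as an already known CPEB4 target. It also reports that this mRNA was pulled down with CPEB4 from WT macrophages, with Cpeb4-/- cells as the control.

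Of all genes above the minimum, those whose levels over the 40 libraries were most like Txnip were 5 zinc finger genes. They were Zfp760 (Pearson r = 0.95), Zfp12 (r = 0.95), Zfp120 (r = 0.95), Zfp472 (r = 0.94) and Zfp157 (r = 0.94). Arrdc3 was most like Hmga2-ps1 (r = 0.97), Bmf (r = 0.96), which encodes a BH3-only death protein, and Lpar6 (r = 0.96), a lysophosphatidic acid receptor. Arrdc2 was most like Orc5 (r = 0.97), Hs1bp3 (r = 0.97) and Trim65 (r = 0.96), and Arrdc1 like 2010320M18Rik (r = 0.94), 0610012G03Rik (r = 0.93) and Emc8 (r = 0.93). Arrdc4 was most like Clcn7 (r = 0.93), the lysosomal chloride transporter, Fabp3 (r = 0.93) and Aoah (r = 0.93), an enzyme that inactivates LPS. Mlxip was most like Ccnt2 (r = 0.93), Smg1 (r = 0.93) and Virma (r = 0.92). The points share mice, batches and the LPS response, and ranking by the 10 group means instead kept 3 of the 5 for Txnip, 2 of 3 for Arrdc2, 1 of 3 for Arrdc1 and 0 of 3 for each of the other 3 genes. Among the 6 genes, the strongest pair over the 40 libraries was Arrdc1 with Mlxip (r = -0.80), then Arrdc2 with Arrdc3 (r = 0.77), and Txnip correlated with Arrdc3 at r = 0.66 and with Arrdc4 at r = -0.08. In deviations from the group means, which leave out the LPS response, r was 0.16 for Txnip with Arrdc3 and 0.51 for Txnip with Arrdc4. The strongest pair there was again Arrdc1 with Mlxip (r = -0.69). Libraries of the same mouse are not independent in these values.

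**Figure D4:**
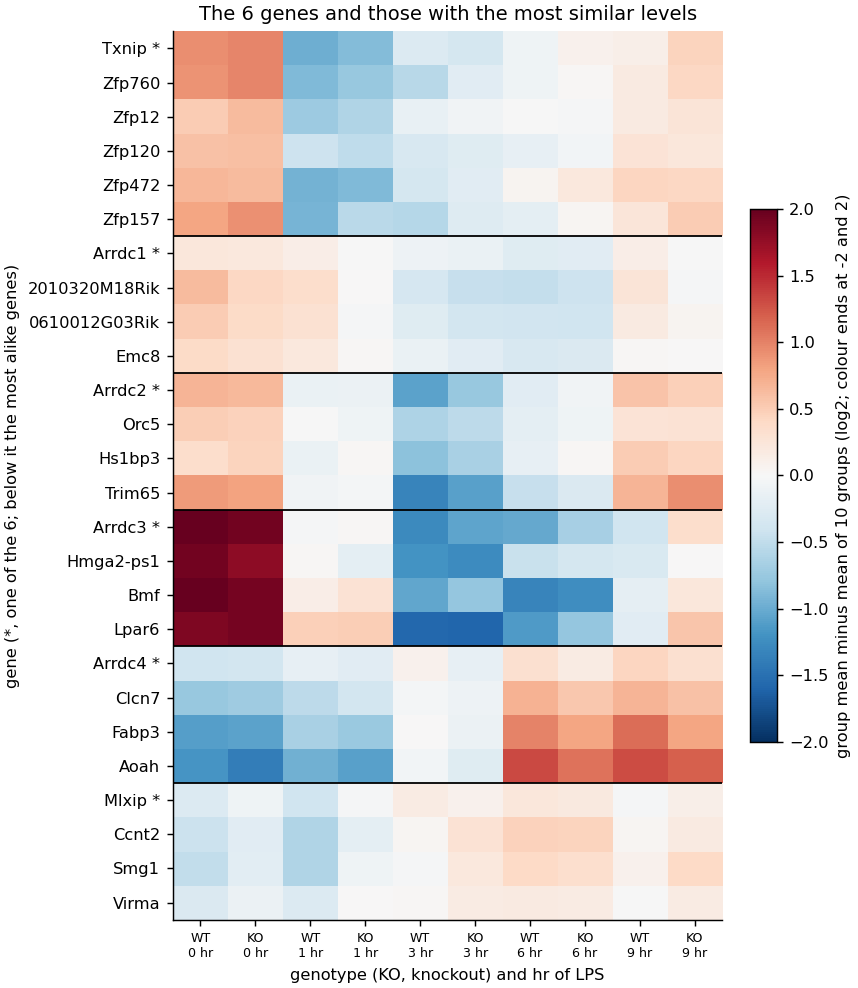
Group mean minus the mean of the 10 groups (log2, colour) for the 6 genes, each marked with an asterisk, and below each the genes with the highest Pearson r over 40 libraries; columns are genotype and hr of LPS. The 5 zinc finger genes share the low level of Txnip at 1 hr, and the block of Arrdc3 is lowest at 3 or 6 hr.

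MLX, the partner of MondoA, and the other proteins of the MYC, MAX and MLX network bind the same kind of box. Of 10 measured genes in this network (11 listed), 3 were called higher and 2 lower at 1 hr in WT cells and 4 higher and 5 lower at 6 hr, where 33.9% and 77.9% of all genes were called, with a median change of -0.01 at 6 hr against -0.02 over all genes. Mycl rose by 3.33 ± 0.12 (SE, adjusted p = 1.9e-15) at 3 hr, Mxd1, a repressor that competes with MYC for MAX, rose by 2.65 ± 0.08 (adjusted p = 4.0e-17) at 6 hr, and Mxd3 fell by 2.90 on the log2 scale at 6 hr (SE 0.12, adjusted p = 4.1e-15). Mlx itself was called higher at 6 hr (0.44) and 9 hr (0.85). Myc was 1.39 ± 0.07 (SE) higher at 1 hr (adjusted p = 1.4e-12) and lower at 3, 6 and 9 hr. Between genotypes 1 gene of 10 was called at each of 3, 6 and 9 hr, against 3.68%, 16.3% and 7.91% of all genes: Myc (0.34 higher in Cpeb4-/- cells), Max (-0.30) and Mxi1, another MAX partner that represses transcription, which was 0.80 ± 0.12 (SE) higher in Cpeb4-/- cells (adjusted p = 0.0051).

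Thioredoxin and its reductases, with reported TXNIP partners, made up a list of 7 genes, all measured. In WT cells the calls at 1 hr were 4 rises and 0 falls, and those at 6 hr were 4 rises and 3 falls, against 33.9% and 77.9% of all genes called in either direction. Nlrp3, the inflammasome sensor, rose by 2.73 ± 0.12 (SE, adjusted p = 8.3e-14) at 1 hr, Txnrd1, the cytosolic thioredoxin reductase, by 1.20 ± 0.09 (adjusted p = 3.9e-10) at 3 hr, and Txnrd3 fell by 1.12 on the log2 scale from 3 to 6 hr (SE 0.08, adjusted p = 4.8e-10). Between genotypes 2 of 7 were called at 6 hr, against 16.3% of all genes, both higher in Cpeb4-/- cells: Ddit4, an inhibitor of mTORC1, by 0.82 ± 0.09 (adjusted p = 0.00023) and Txnrd1 by 0.29 ± 0.05 (adjusted p = 0.0036). Ddit4 was the 1 gene of the list called at 3 hr, and none of the 7 was called at 9 hr.

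The next list holds hexose transporters and the hexokinases, the first enzymes to act on glucose taken up. TXNIP restrains glucose uptake, and whether each listed transporter is its cargo was not tested. All 8 measured genes (9 listed) were called in WT cells at 3, 6 and 9 hr, 5 higher and 3 lower each time, against 67.8%, 77.9% and 71.5% of all genes. Slc2a6 rose by 2.69 ± 0.06 (SE, adjusted p = 1.5e-19) and Slc2a1, which encodes the main glucose transporter GLUT1, by 1.87 ± 0.13 (adjusted p = 4.2e-11) at 6 hr, and Slc2a3 fell by 1.95 on the log2 scale at 9 hr (SE 0.10, adjusted p = 5.9e-13). At 6 hr 7 of the 8 were called between genotypes, where 16.3% of all genes were, 2 higher and 5 lower in Cpeb4-/- cells, with a median difference of -0.22 against -0.02 over all genes. Those higher were Slc2a1, by 0.37 ± 0.05 (adjusted p = 0.00063), and Hk2, by 0.23 ± 0.04 (adjusted p = 0.0036), and both were higher at 9 hr too, by 0.53 ± 0.10 (adjusted p = 0.015) and 0.42 ± 0.07 (adjusted p = 0.0076). Those lower at 6 hr were Slc2a6 (-0.23), Slc2a8 (-0.34), Slc2a9 (-0.37), Hk1 (-0.21) and Hk3 (-0.30), and Slc2a6 was the 1 gene lower at 9 hr (-0.33, adjusted p = 0.019). Slc2a3 was the 1 gene called at 3 hr (0.37 higher, adjusted p = 0.048). The list was chosen with earlier results of these data known, so the shares called do not test it as a set.

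NEDD4 family ubiquitin ligases and their NDFIP adaptors are the enzymes that alpha-arrestins recruit. Of 8 measured genes (11 listed), 2 were called higher and 0 lower at 1 hr in WT cells, and 4 higher and 4 lower at 6 hr, against 33.9% and 77.9% of all genes. Wwp1 fell by 1.71 on the log2 scale (SE 0.14, adjusted p = 1.4e-09) and Nedd4l by 1.47 (SE 0.08, adjusted p = 2.5e-12) at 9 hr, and Smurf1 rose by 0.72 ± 0.07 (adjusted p = 1.0e-08). At 6 hr 3 of 8 were called between genotypes, against 16.3% of all genes: Nedd4l (-0.27) and Wwp2 (-0.15) lower and Smurf2 (0.21) higher in Cpeb4-/- cells. None was called at the other times.

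Other genes with an arrestin fold, such as beta-arrestins, visual arrestins and VPS26 relatives, numbered 7 measured of 9 listed. In WT cells 1 rose and 3 fell by 1 hr, none rose and 6 fell by 3 hr, 3 were above and 4 below the untreated level by 6 hr, and 4 were above and 1 below it by 9 hr, against 33.9%, 67.8%, 77.9% and 71.5% of all genes called. Arrb1, a beta-arrestin that desensitizes G protein-coupled receptors, fell by 2.39 on the log2 scale at 6 hr (SE 0.07, adjusted p = 3.9e-17). Vps26c, listed under its older symbol Dscr3, fell by 1.08 at 3 hr (SE 0.05, adjusted p = 2.1e-13), and Sag rose by 1.36 ± 0.19 (adjusted p = 3.4e-06) from 3 to 6 hr. Between genotypes Arrb2 was called at 3 hr (-0.22, adjusted p = 0.046). Arrb1 was the 1 gene of this list called between genotypes at 6 and at 9 hr, higher in Cpeb4-/- cells by 0.37 ± 0.06 (adjusted p = 0.0018) and 0.36 ± 0.08 (adjusted p = 0.023).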

How the data were processed

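BMDMs of 4 WT and 4 Cpeb4-/- mice were profiled at 5 times. Per the study's methods and the submitters' processing notes, the authors aligned reads with STAR 2.3.0e to mm10, counted them per gene with featureCounts and deposited log2-scale rlog values made with DESeq2. The rlog table holds no counts, so no count test could be run. It also shrinks differences of weakly detected genes. The paper points to alignment statistics in its supplement, and the depth of each library was not examined here. No value column was left unused.

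Groups came from the sample labels. limma 3.58.1 (lmFit, eBayes with trend; R 4.3.3) was fitted separately at each time for genotype, separately in each genotype for LPS, and over 40 libraries for the difference in change, each time to the genes whose mean over the libraries of the fit reached an rlog of 2.32 (log2 of 5); p-values were Benjamini-Hochberg adjusted over all genes, with a threshold of 0.05. Exact permutation tests used scipy 1.17.1. The fits were also run on simulated data in which libraries were independent, with no effect of the mouse. That run therefore does not test how the fits handle repeated libraries of a mouse. Promoters came from RefSeq (GRCm38.p6; all 6 genes matched) and 3′ untranslated regions from GENCODE vM21; 958 rows without a symbol were tested but not named.

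The 6 genes, the 5 lists and the rules were chosen with earlier results of these data known. Named were the 6 genes, the 3 genes most like each (5 for Txnip), and from each list the 3 genes with the largest called WT change; Mlx, Myc, Gm15441 and the genes called between genotypes were added after their values were seen.

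Equal replicate numbers mark libraries of the same mouse, per the labels. Deviations from group means correlated with a median r of 0.29 over 80 pairs from the same mouse (68 above 0.1, lowest -0.194) and of -0.0907 between other mice of a genotype. Alternatives were no filter, a stricter filter, no trend, quantile normalization, the mouse as a block, batch as a covariate, a fit of all 40 libraries, likeness over group means, and each mouse left out.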

Additional observations from a re-analysis of the deposited data

Results flagged for a closer look

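Of 60 groups of 4 libraries (6 genes, 10 groups), 2 held a library standing apart from the other 3 by Dixon's test, which chance alone gives in about 1 of 20 groups. Both came from Cpeb4-/- mouse 3: Arrdc1 at 0 hr was 11.01, against 11.21 to 11.24 in the other Cpeb4-/- libraries, and Arrdc4 at 6 hr was 9.66, against 9.43 to 9.45. The change from 0 to 9 hr differed between genotypes by the test of the difference itself for Txnip (0.28 higher in Cpeb4-/- cells, adjusted p = 0.027) and Arrdc3 (0.94 higher, adjusted p = 0.0026).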

How the results depend on the processing

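Of 1602 values of the 6 genes under alternatives that could alter them, 1485 kept their direction and their side of the threshold, 63 lost a call, 22 gained one and 32 changed sign. With the mouse as a replicate block, genotype calls of members rose from 0 to 1 higher at 1 hr and from 0 to 1 higher and 1 lower at 3 hr and fell from 2 to 1 at 6 hr, and rises in Cpeb4-/- cells at 3 hr went from 1 to 2 and differences in change to 6 hr from 0 to 1; beside these it added 1 call, the fall of Arrdc1 in Cpeb4-/- cells from 1 to 3 hr (adjusted p = 0.044), and changed no other. The fit of all 40 libraries gave the same counts of genotype calls as the block at 1, 3 and 6 hr. The 6 hr count also fell to 1 without the filter, without the trend and with batch as a covariate. Without the filter, falls of members in WT cells from 6 to 9 hr went from 1 to 0 and rises in Cpeb4-/- cells at 9 hr from 2 to 1.

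Quantile normalization took WT falls at 1 hr from 3 to 5, WT rises at 3, 6 and 9 hr from 2 to 1 each, WT falls from 3 to 6 hr from 0 to 1 and from 6 to 9 hr from 1 to 0, rises in Cpeb4-/- cells at 1 hr from 0 to 1 and at 6 and 9 hr from 2 to 1, and differences in change to 9 hr from 2 to 1. It turned the sign of Mlxip in Cpeb4-/- cells relative to 0 hr (-0.099, -0.093, -0.10 and -0.060 at 1, 3, 6 and 9 hr), from 3 to 6 hr (-0.0088) and from 6 to 9 hr (0.042), in WT cells from 3 to 6 hr (-0.055) and between genotypes at 6 hr (0.010), of Arrdc2 in WT cells at 9 hr (0.013) and of the difference in change of Arrdc1 to 3 hr (0.0076).

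Leaving out 1 mouse at a time, members called higher in Cpeb4-/- cells ranged from 0 to 1 at 1 hr and from 1 to 2 at 6 hr, and those called lower from 0 to 1 at 6 and at 9 hr. In WT cells rises ranged from 0 to 1 at 1 hr, from 1 to 2 at 9 hr and from 2 to 4 from 3 to 6 hr, and falls from 0 to 1 from 3 to 6 hr and from 6 to 9 hr. In Cpeb4-/- cells rises ranged from 0 to 2 at 3 hr, from 1 to 2 at 6 and at 9 hr, and from 3 to 5 from 6 to 9 hr. Differences in change to 9 hr ranged from 1 to 2. Genotype differences that changed sign were small, with ranges of -0.055 to 0.029 (Arrdc1, 0 hr), -0.050 to 0.019 (Arrdc2, 0 hr), -0.013 to 0.085 (Arrdc4, 0 hr), -0.048 to 0.13 (Arrdc2, 1 hr), -0.021 to 0.11 (Arrdc3, 1 hr), -0.11 to 0.022 (Arrdc1, 3 hr), -0.027 to 0.070 (Arrdc1, 6 hr) and -0.069 to 0.0092 (Mlxip, 6 hr). The change of Mlxip in Cpeb4-/- cells at 1 hr ranged from -0.0050 to 0.12, and differences in change from -0.034 to 0.11 (Arrdc2 to 1 hr), -0.053 to 0.037 (Arrdc1 to 3 hr), -0.0064 to 0.12 (Arrdc1 to 6 hr) and -0.11 to 0.026 (Mlxip to 9 hr). Where a setting changed a call, the cause was not tested. The depth behind the values was not examined, and the 4 mice of a genotype limit the precision.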
